A study of Mus musculus with 20 samples.

Results

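Potassium channel genes were taken as every gene in the 3 tables of changed genes deposited by the authors whose symbol begins with Kcn. The rule found 18 genes among the 3696 genes named in at least 1 table. RefSeq lists 94 protein-coding mouse genes with such a symbol and 4 non-coding ones (annotation of build GRCm38.p6), so 76 of the protein-coding genes stood in no table. A gene absent from a table was not called there, and its level and fold change were not analysed here. Of the 18 genes, 12 stood in 1 table, 6 in 2 tables and 0 in 3. The same split of all 3696 genes was not counted, so these counts do not set potassium channel genes apart from other called genes.

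The tables come from RNA sequencing of aortic tissue of female mice in 4 groups of 5 libraries, each library made from the pooled aortas of 2 animals. WT young and WT aged mice were wild-type animals of 12 to 15 and 72 to 78 weeks. KO young and KO aged mice had the same ages and a genotype labelled Knockdown-KO for Slc24a4 (Nckx4-/-), the gene of a potassium-dependent sodium/calcium exchanger. The labels used here give no strain, allele, promoter or Cre, and no treatment. Slc24a4 RNA fell with age in WT aorta by 2.00 on the log2 scale (SE 0.46) in the authors' deposited table from a rebuilt mean of 520 to 130. It was not called between KO young and WT aged aorta, so these tables show no loss of the targeted RNA, and KO below stands for the submitters' label. The smooth muscle genes Lmod1 and Synpo2 had mean normalized counts of 24197 and 65590 in KO ageing in the authors' deposited tables, while defining markers of smooth muscle such as Myh11, Acta2 and Tagln were called in none.

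Potassium channels let potassium ions leave the cell and so hold the membrane potential of vascular smooth muscle negative. When they open, the membrane hyperpolarizes, voltage-gated calcium channels close and the vessel relaxes; when they close, the vessel contracts. Voltage-gated (Kv) channels open on depolarization, and calcium-activated channels couple to intracellular calcium. Inward rectifiers pass inward current more readily than outward current and include the ATP-sensitive channel, and two-pore channels carry background current.

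All levels below are mean normalized counts, and all changes are log2 fold changes with the standard error (SE) of the authors' deposited tables. A call is an adjusted p under 0.05 there, from a test on 5 pools a group. The deposited fold changes are shrunken towards 0. The group means given below were rebuilt from the deposited mean and fold change of a gene, so they carry that shrinkage and have no error of their own. With no value per library to work from, neither depth nor the overlap of groups is given. In a whole vessel, fewer cells of a type and less RNA per cell cannot be told apart.

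The first comparison was of age in wild-type animals. With age, WT aorta gained RNA of both sodium-activated channels, of the inward rectifier Kcnj12 and of the two-pore channel Kcnk1. It lost RNA of the voltage-gated channel Kcnc4, of the auxiliary subunit Kcnab1 and of both pore genes of the ATP-sensitive channel, Kcnj8 and Kcnj11. In all 9 of the 94 annotated genes were called, 4 higher and 5 lower. This is 9.57% of the annotated genes, beside 7.34% of all annotated protein-coding genes. Of the genes tested in this comparison 12.0% were called, 5.26% higher and 6.76% lower; how many potassium channel genes were tested is not known. Their median absolute change was 0.93, beside 0.41 for all called genes. The 5 with a change of at least 0.5 had mean normalized counts from 88.9 (Kcnk1) to 860 (Kcnc4). The median count of all called genes was 1186, and the part of expression level in the sizes of change was not tested.

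Among voltage-gated pore subunits 2 of 40 were called and both were lower. Kcnc4, which encodes the fast-inactivating channel Kv3.4, had a rebuilt mean of 1312 in WT young and 407 in WT aged aorta from the authors' deposited table. Its fold change there was −1.69 (SE 0.79, adjusted p = 0.0063), the ninth largest fall of the 972 genes called lower. This SE was the largest among the potassium channel genes. Rebuilt from the p-value, as its normal score (z) times this SE, the fall was 2.80 on the log2 scale. A value rebuilt so need not equal the estimate before shrinkage. Of 13 auxiliary subunits only Kcnab1 was called, which encodes a cytoplasmic beta subunit that speeds inactivation of Kv1 channels. Its mean went from 7481 to 5749 in the authors' deposited table, a change of −0.38 (SE 0.12, adjusted p = 0.0037).

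Of 12 calcium- and sodium-activated genes 2 were called, and both encode channels opened by intracellular sodium. Kcnt1, the gene of the channel Slack, rose from a mean of 73.2 to 210 (1.52, SE 0.30, adjusted p = 1.28e-06) in the authors' deposited table, which gave it the smallest p of the potassium channel genes in WT ageing. Kcnt2, the gene of its relative Slick, rose from 1167 to 1508 (0.37, SE 0.14, adjusted p = 0.0078) in the authors' deposited table. None of the calcium-activated channels proper, such as Kcnma1, the pore gene of the large-conductance channel, was called in this comparison.

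Of 15 inward-rectifier genes 3 were called. Kcnj8 encodes Kir6.1, the pore of the ATP-sensitive channel of vascular smooth muscle, and Kcnj11 encodes Kir6.2, the pore of that channel in pancreatic beta cells and heart. Kcnj11 fell from 175 to 92.1 (−0.93, SE 0.25, adjusted p = 1.03e-04) in the authors' deposited table. Kcnj8 fell from 1358 to 1127 (−0.27, SE 0.11, adjusted p = 0.037) in the authors' deposited table. Abcc8, which encodes the sulfonylurea receptor subunit SUR1 and is the neighbour of Kcnj11 on chromosome 7 in the GENCODE annotation, also fell (−1.36, SE 0.49, adjusted p = 0.0024), from a low mean of 50.8 to 19.8 in the authors' deposited table. Abcc9, the receptor gene beside Kcnj8 on chromosome 6, was not called. Kcnj12, which encodes the strong rectifier Kir2.2, moved the other way, from 73.2 to 213 (1.54, SE 0.36, adjusted p = 2.64e-05) in the authors' deposited table.

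Of 14 two-pore genes 1 was called. Kcnk1 encodes TWIK-1, a weakly rectifying background channel, and rose from 53.9 to 124 (1.20, SE 0.35, adjusted p = 0.0011) in the authors' deposited table. Fibroblast markers fell alongside these changes, with 6 of 10 called and all lower, and the authors' deposited table gave −1.34 for Mfap5, −0.62 for Sfrp2 and −0.60 for Fap. The summed mean of those 6 genes went from 162690 to 87697, most of the fall from Col1a1, named after its value was seen, and from 25164 to 16509 without Col1a1. Both cardiac muscle markers called were lower, Actc1 (−1.99, SE 0.40, from 153 to 38.5) and Myh6 (−0.09, SE 0.19), and both white adipocyte markers called were higher, Cfd (0.89, SE 0.35) and Cidec (0.45, SE 0.17), in the authors' deposited table. The deposited change of Myh6 is strongly shrunken, and rebuilt from its p-value it was −0.57. Of the smooth muscle markers 1 of 10 was called, Des (0.39), and of the endothelial, Schwann cell and macrophage markers none. The part of these shifts in the potassium channel values was not tested.

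**Figure D1:**
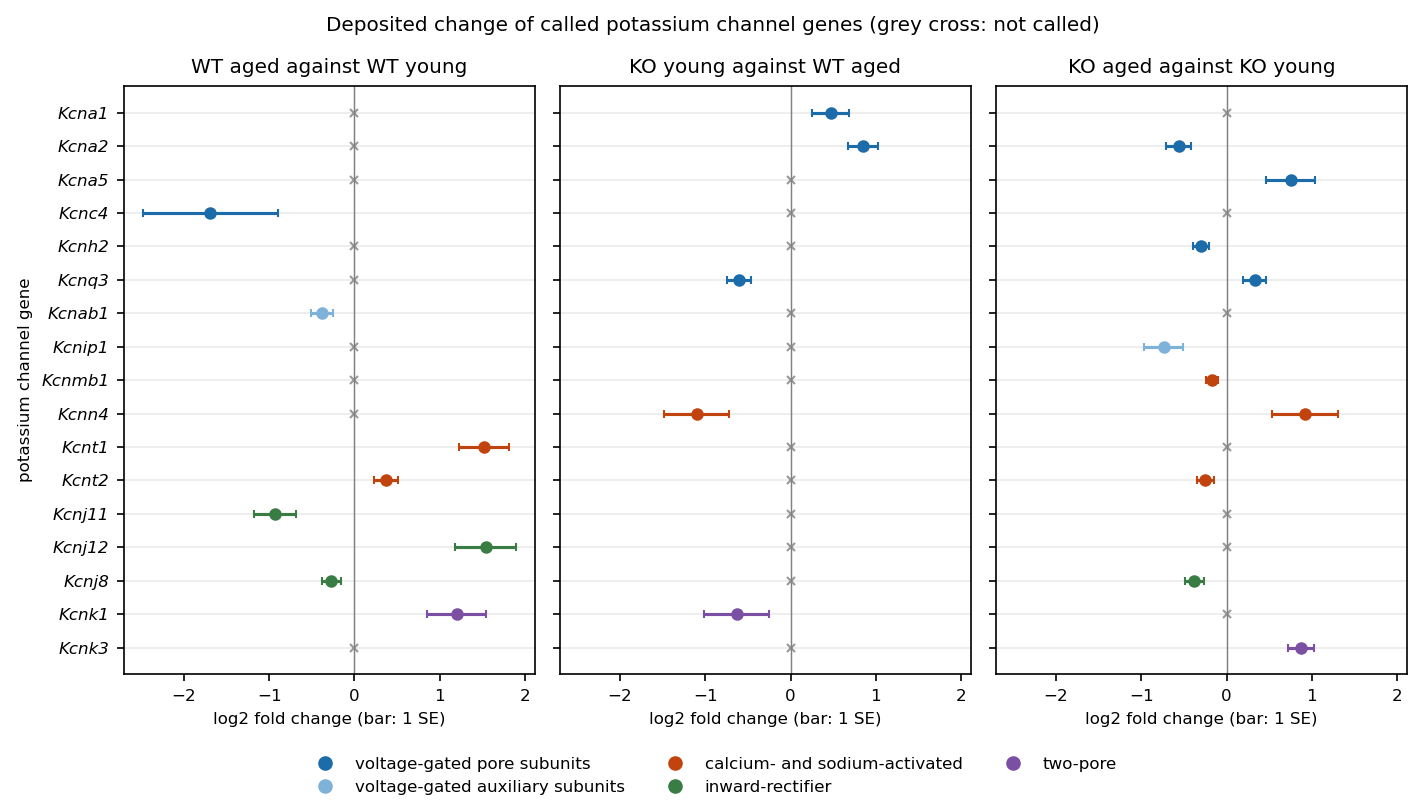
Log2 fold change (x axis) of the potassium channel genes reported here (y axis, coloured by family) in each comparison, with a bar of 1 SE; a grey cross marks a gene not called. Kcnc4 at −1.69 and Kcnj12 at 1.54 are the ends of the range in WT ageing, and no gene has a value in all 3 panels.

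In the second comparison KO young and WT aged animals differ in both genotype and age, and those effects cannot be told apart. KO young aorta had more RNA of the voltage-gated channels Kcna1 and Kcna2, and less of Kcnq3, of the calcium-activated channel Kcnn4 and of Kcnk1. These 5 genes, 2 higher and 3 lower, are 5.32% of the annotated genes, beside 4.84% of all annotated protein-coding genes. Of the genes tested 7.78% were called, 4.08% higher and 3.70% lower. The median absolute change of the 5 genes was 0.63, beside 0.40 for all called genes. Their mean normalized counts went from 72.9 (Kcnn4) to 632 (Kcnq3), beside a median of 1333 for all called genes.

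All 3 voltage-gated genes called here encode pore subunits. Kcna2 encodes Kv1.2, a delayed rectifier of nerve and smooth muscle, and stood at 434 in WT aged and 782 in KO young aorta (0.85, SE 0.17, adjusted p = 4.94e-06) in the authors' deposited table. Kcna1, which encodes Kv1.1, a subunit that assembles with Kv1.2 in axons, stood at 217 and 300.4 (0.47, SE 0.21, adjusted p = 0.024) in the authors' deposited table. The p of Kcna1 was the second largest of the 5. Kcnq3, which encodes Kv7.3, a subunit of the neuronal M-channel, was lower in KO young, at 502 against 762 (−0.60, SE 0.14, adjusted p = 4.08e-05) in the authors' deposited table.

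Kcnn4 encodes the intermediate-conductance calcium-activated channel, which in endothelium takes part in hyperpolarization that relaxes the vessel. Its mean was 99.4 in WT aged and 46.4 in KO young aorta (−1.10, SE 0.38, adjusted p = 0.0042) in the authors' deposited table, the largest change among the 5. Kcnk1 stood at 116 and 74.7 (−0.63, SE 0.38, adjusted p = 0.036) in the authors' deposited table. Rebuilt from its p-value, the change of Kcnk1 was −1.15. None of the auxiliary subunits and inward rectifiers was called.

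Some endothelial markers, and a few neuron and chromaffin markers, also differed in this comparison. Of 10 endothelial markers 5 were called, 2 higher and 3 lower, with Nos3 at −0.71, Egfl7 at 0.48 and Kdr at 0.36 in the authors' deposited table, and the summed mean of the 5 was 8054 in WT aged and 6678 in KO young. The most abundant of them, Vwf, named after its value was seen, carried that fall (−0.62, SE 0.34, from 4643 to 3021) in the authors' deposited table, and without it the sum was 3411 in WT aged and 3657 in KO young. Among 10 neuron and chromaffin markers, Snap25 (−2.15) and Pnmt (−2.07) were called in the authors' deposited table, with a summed mean of 251 and 57.9, while no Schwann cell marker was called. Their part in the values of Kcnn4, Kcna1, Kcna2 and Kcnq3 was not tested.

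The third comparison was of age in animals labelled KO. With age, their aorta gained RNA of the two-pore channel Kcnk3, of Kcnn4 and of the voltage-gated channels Kcna5 and Kcnq3. It lost RNA of Kcna2, Kcnh2, Kcnip1, Kcnj8, Kcnmb1 and Kcnt2. The 10 called genes, 4 higher and 6 lower, are 10.6% of the annotated genes, beside 8.82% of all annotated protein-coding genes. Of the genes tested 14.4% were called, 7.71% higher and 6.68% lower. The median absolute change of the 10 genes was 0.47, beside 0.33 for all called genes. The 5 with a change of at least 0.5 had mean normalized counts from 66.8 (Kcnn4) to 772 (Kcna2). The median count of all called genes was 1259.

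Of the 40 voltage-gated pore subunits 4 were called, 2 in each direction. Kcna2 fell from 920 in KO young to 624 in KO aged aorta (−0.56, SE 0.15, adjusted p = 1.92e-04) in the authors' deposited table. Kcnh2, which encodes the channel ERG1 that repolarizes the heart, fell from 4256 to 3457 (−0.30, SE 0.10, adjusted p = 0.0040) in the authors' deposited table. Kcna5 encodes Kv1.5, a delayed rectifier of arterial smooth muscle and atrium, and rose from 110 to 185 (0.75, SE 0.29, adjusted p = 0.0055) in the authors' deposited table. Kcnq3 rose from 563 to 708 (0.33, SE 0.13, adjusted p = 0.014) in the authors' deposited table. Kcnip1, an auxiliary gene whose product binds Kv4 channels and senses calcium, fell from 153 to 91.7 (−0.74, SE 0.23, adjusted p = 9.99e-04) in the authors' deposited table.

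Of the calcium- and sodium-activated genes 3 of 12 were called. Kcnn4 rose from 46.2 to 87.4 (0.92, SE 0.38, adjusted p = 0.0093) in the authors' deposited table. Kcnt2 fell from 1618 to 1361 (−0.25, SE 0.10, adjusted p = 0.017) in the authors' deposited table. Kcnmb1 encodes the beta1 subunit that raises the calcium sensitivity of the large-conductance channel in smooth muscle, and it fell from 5765 to 5124 (−0.17, SE 0.07, adjusted p = 0.040) in the authors' deposited table, the smallest change of any potassium channel gene here. Kcnmb1 and Kcnip1 overlap on opposite strands of chromosome 11 in the GENCODE annotation. The library kit keeps strand, per the labels' protocols, but how strand entered the counting is not given in the sources used here, so how reads were divided between this pair is uncertain.

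One inward rectifier was called, Kcnj8, which fell from 1406 to 1081 (−0.38, SE 0.11, adjusted p = 8.81e-04) in the authors' deposited table. One two-pore gene was called. Kcnk3 encodes TASK-1, an acid-sensitive background channel that is also a marker of brown fat, and it rose from 539 to 986 (0.87, SE 0.16, adjusted p = 1.05e-07) in the authors' deposited table, with the smallest p of all 24 potassium channel values. Gm9899, a transcript on the opposite strand within Kcnk3, rose too (0.55, SE 0.30, adjusted p = 0.027) in the authors' deposited table, and reads of the pair are uncertain for the same reason. Of 10 brown adipocyte markers 7 were called, 6 higher and 1 lower, with Ppargc1a (0.89) and Pank1 (0.55) higher and Prdm16 (−0.33) lower in the authors' deposited table, and their summed mean went from 13607 to 17989, or from 4355 to 10629 without Prdm16, the most abundant. Ucp1, the uncoupling protein that defines brown fat, named after its value was seen, stood at 1875 in KO young and 5762 in KO aged aorta (1.62, SE 0.45) in the authors' deposited table. Of 10 smooth muscle markers 3 were called, Myocd at 0.58, Lmod1 at −0.32 and Synpo2 at −0.21 in the authors' deposited table, with a summed mean of 108481 and 99175, or 38126 and 38350 without Synpo2, the most abundant. Of 10 endothelial markers 3 were called, with Egfl7 at −0.60, Cldn5 at −0.67 and Nos3 at 0.50 in the authors' deposited table. The part of these markers in the values of Kcnk3, Kcnmb1, Kcnj8 and Kcnn4 was not tested.

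The remaining counts of the marker lists, of 10 genes each, are set beside the share of all genes tested that were called. That share was 12.0% in WT ageing, 7.78% in KO young against WT aged and 14.4% in KO ageing. Fibroblast genes called were 3 (30%) in KO young against WT aged, all higher, and 3 (30%) in KO ageing, all lower. In WT ageing, as given above, 6 were called, all lower. White adipocyte genes called were 2 in WT ageing, 2 in KO young against WT aged and 0 in KO ageing. Cardiac muscle genes called were 2, 1 and 1 in that order (Ryr2 in both comparisons with KO young, at −0.60 and 0.31 in the authors' deposited tables), macrophage genes 0, 1 and 1, Schwann cell genes 0, 0 and 1, and T and B cell genes 0 in every comparison. Neuron and chromaffin genes called were 1 in each ageing comparison, Pnmt, at 0.84 in WT and 1.56 in KO in the authors' deposited tables. Brown adipocyte genes called were 1 in WT ageing and 3 in KO young against WT aged, and smooth muscle genes 2 in the latter.

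**Figure D2:**
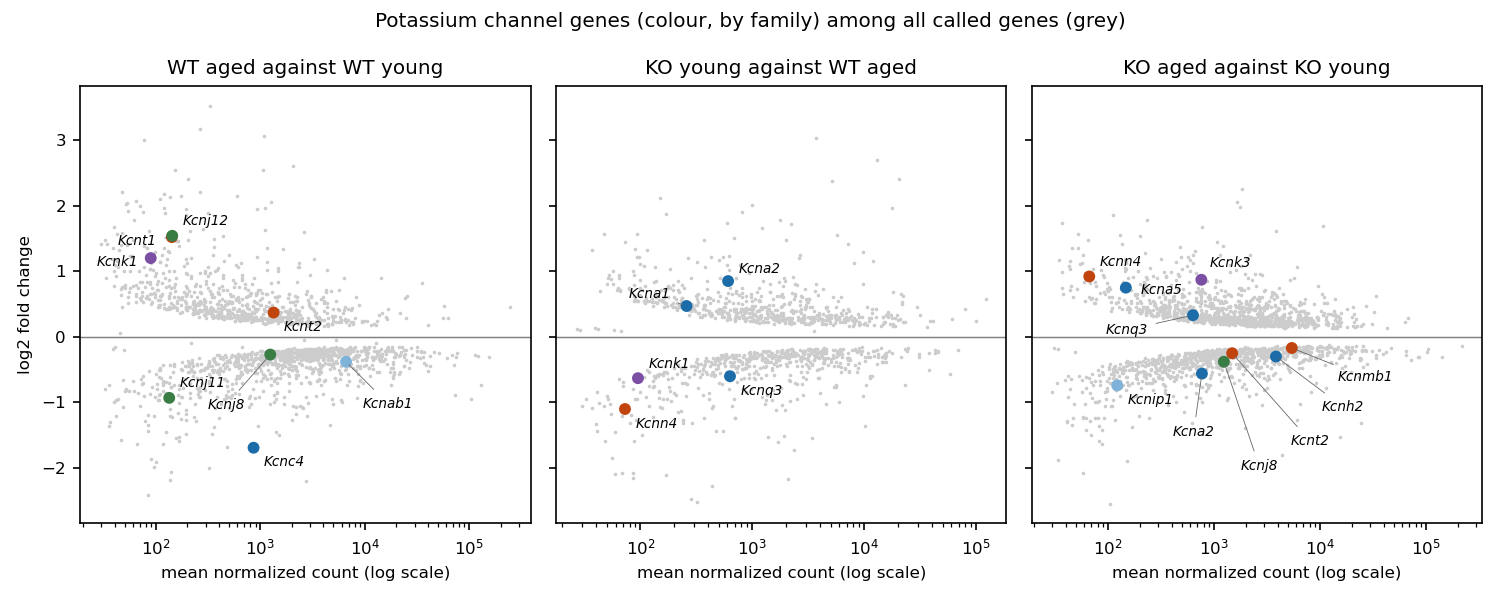
Log2 fold change (y axis) against mean normalized count (x axis, log scale) for every called gene (grey) and the potassium channel genes reported here (coloured by family), in each comparison. Genes that were not called are not plotted. In KO ageing Kcnn4 lies at a mean of 66.8 and a change of 0.92, and Kcnmb1 at a mean of 5445 and a change of −0.17.

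Promoters are shown for 5 genes called in KO ageing, picked after their values were seen: Kcna5 and Kcnn4, which rose, and Kcna2, Kcnj8 and Kcnt2, which fell. RefSeq promoter sequences (build GRCm38.p6) were matched by symbol for 12 of the 18 genes, with 16 promoters, each from 250 bases before to 50 bases after a start; Kcna1, Kcnj11, Kcnk3, Kcnq3 and Kcnt1 were among those not matched. Both strands were searched for 6 motifs, which may overlap: the E-box CACGTG, the AP-1 site TGANTCA, the glucocorticoid response element (GNACA and TGTNC separated by any 3 bases), the TATA box TATAAA, the GC box GGGCGG and the CArG box bound by serum response factor. They are held by 7.15%, 7.81%, 0.475%, 13.6%, 35.7% and 1.63% of the 32851 promoters in the table. Capitals mark the matches, and each sequence is printed 5′ to 3′ on the strand of its gene.

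Kcna5 (chr6:126535506-126535805, minus strand): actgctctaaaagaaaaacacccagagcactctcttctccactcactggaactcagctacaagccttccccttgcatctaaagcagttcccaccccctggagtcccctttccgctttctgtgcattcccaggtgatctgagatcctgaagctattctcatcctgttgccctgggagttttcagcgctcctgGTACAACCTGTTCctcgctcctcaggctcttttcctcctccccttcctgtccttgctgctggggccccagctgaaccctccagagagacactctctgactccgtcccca

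Kcnn4 (chr7:24370013-24370312, plus strand): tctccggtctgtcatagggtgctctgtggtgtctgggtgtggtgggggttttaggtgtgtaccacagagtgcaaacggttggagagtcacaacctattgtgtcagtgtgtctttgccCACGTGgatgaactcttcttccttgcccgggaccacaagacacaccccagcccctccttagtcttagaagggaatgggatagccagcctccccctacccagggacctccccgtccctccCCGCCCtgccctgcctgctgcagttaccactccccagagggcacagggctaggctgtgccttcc

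Kcna2 (chr3:107101317-107101616, plus strand): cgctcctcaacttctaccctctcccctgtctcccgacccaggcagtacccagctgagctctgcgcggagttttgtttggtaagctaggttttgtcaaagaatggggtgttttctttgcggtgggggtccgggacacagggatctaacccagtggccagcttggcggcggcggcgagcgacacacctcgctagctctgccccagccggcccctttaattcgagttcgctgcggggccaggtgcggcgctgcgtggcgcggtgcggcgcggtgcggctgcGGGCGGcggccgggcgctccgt

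Kcnj8 (chr6:142571565-142571864, minus strand): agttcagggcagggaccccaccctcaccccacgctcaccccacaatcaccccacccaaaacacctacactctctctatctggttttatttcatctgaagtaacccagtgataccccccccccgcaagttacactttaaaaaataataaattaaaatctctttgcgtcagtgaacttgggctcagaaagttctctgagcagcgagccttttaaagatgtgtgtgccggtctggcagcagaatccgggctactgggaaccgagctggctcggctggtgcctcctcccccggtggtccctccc

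Kcnt2 (chr1:140245468-140245767, plus strand): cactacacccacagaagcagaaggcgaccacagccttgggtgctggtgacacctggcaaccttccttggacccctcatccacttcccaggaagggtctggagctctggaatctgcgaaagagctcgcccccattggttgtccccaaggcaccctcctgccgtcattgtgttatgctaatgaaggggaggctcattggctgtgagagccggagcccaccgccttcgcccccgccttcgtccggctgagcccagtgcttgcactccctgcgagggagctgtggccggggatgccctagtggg

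The Kcna5 window held the single match to the glucocorticoid response element among the 16 promoters, beginning 59 bases before the start. Transcription of Kcna5 is known to be induced by glucocorticoids in the rat. Whether glucocorticoids had a part in the values of Kcna5 in these aortas was not tested. The Kcnn4 window held an E-box 133 bases before the start and a GC box 14 bases before it, and the Kcna2 window held a GC box after the start. No match lay in the windows of Kcnj8 and Kcnt2. Kcnh2, Kcnip1 and Kcnmb1, which also fell in KO ageing, had windows that are not printed. That of Kcnh2 held GC boxes 233, 85 and 70 bases before the start. Kcnip1 had a GC box 99 bases before a start, and Kcnmb1 no match. A match is a string of letters and does not show binding.

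The ageing comparisons in WT and KO aorta share no library, and 438 genes were called in both. The potassium channel genes among them were Kcnj8 and Kcnt2, which is 22.2% of those called in WT and 20% of those called in KO ageing, beside 25.3% and 21.0% of all called genes. Kcnt2 rose with age in WT and fell with age in KO aorta. The difference, KO minus WT, was −0.62 (SE 0.17, 95% interval −0.95 to −0.29, adjusted p = 0.0015, normal test of the difference with Benjamini-Hochberg adjustment over the 438 genes). In this test 29.9% of the 438 genes were called different. Of the 438 genes 77, or 17.6%, had opposite signs in the ageing tables, and 76 of these 77 were called different, so for Kcnt2 the test adds little to its calls in the 2 tables. Kcnj8 was lower with age in both genotypes, and its difference was −0.11 (SE 0.16, 95% interval −0.42 to 0.20, adjusted p = 0.72, same test), so a difference of up to 0.42 is within the interval. The other genes called in 1 ageing table only were not tested for a difference between genotypes.

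**Figure D3:**
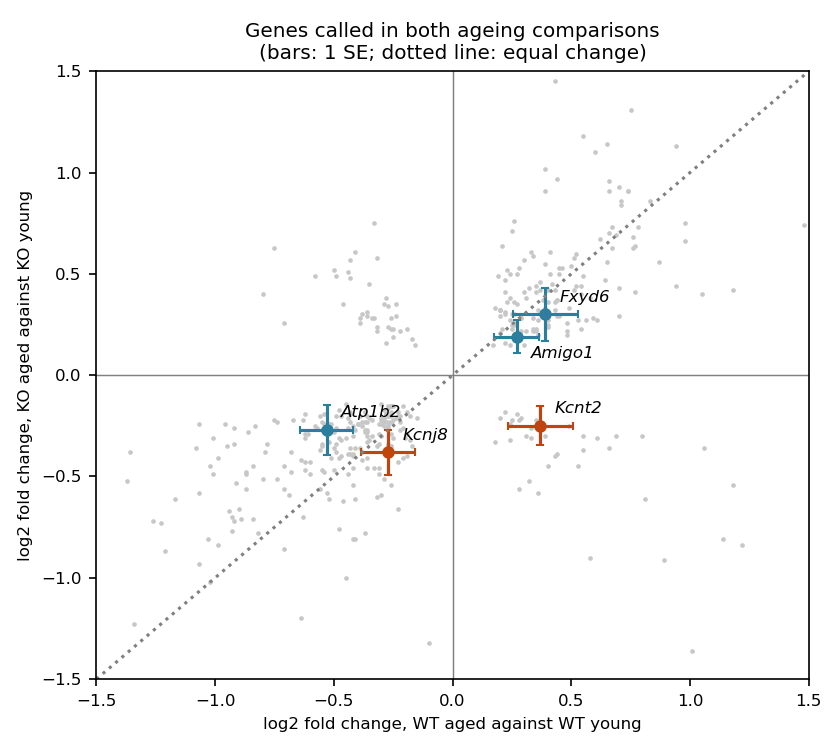
Log2 fold change with age in WT (x axis) and KO aorta (y axis) for the 438 genes called in both (grey; 15 lie outside the axes), with Kcnj8 and Kcnt2 in orange, partner genes in blue and bars of 1 SE. Kcnt2, at 0.37 and −0.25, lies in the quadrant of opposite signs, and Kcnj8, at −0.27 and −0.38, near the line of equal change.

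A further 4 genes were called in the KO young against WT aged comparison and in one of the ageing comparisons, which share the libraries of a group with it, so their values are only set side by side. Such overlap was common among the 1141 genes called in KO young against WT aged, of which 398 were also called in WT ageing and 656 in KO ageing. The share of those genes whose changes had opposite signs was not counted. Kcna2 was 0.85 above WT aged in KO young and then 0.56 lower in KO aged than in KO young in the authors' deposited tables, which sums to 0.29 for KO aged against WT aged. Kcnq3 was 0.60 below and then rose by 0.33 in the authors' deposited tables, a sum of −0.27. Kcnn4 was 1.10 below and then rose by 0.92 in the authors' deposited tables, a sum of −0.18. Kcnk1 rose by 1.20 with age in WT and stood 0.63 below WT aged in KO young animals in the authors' deposited tables, a sum of 0.57 for KO young against WT young. The summed changes are shrunken to different degrees. Rebuilt from the p-value, those of Kcnk1 were 1.41 in WT ageing and −1.15 in KO young against WT aged, so the size of its sum is uncertain. The SE of a sum is at most 0.32 for Kcna2, 0.27 for Kcnq3, 0.77 for Kcnn4 and 0.73 for Kcnk1, whatever the correlation, and the tables were normalized separately. The rebuilt KO young mean was 782 in one table and 920 in the other for Kcna2, 502 and 563 for Kcnq3, and 46.4 and 46.2 for Kcnn4. The rebuilt WT aged mean of Kcnk1 was 124 and 116.

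**Figure D4:**
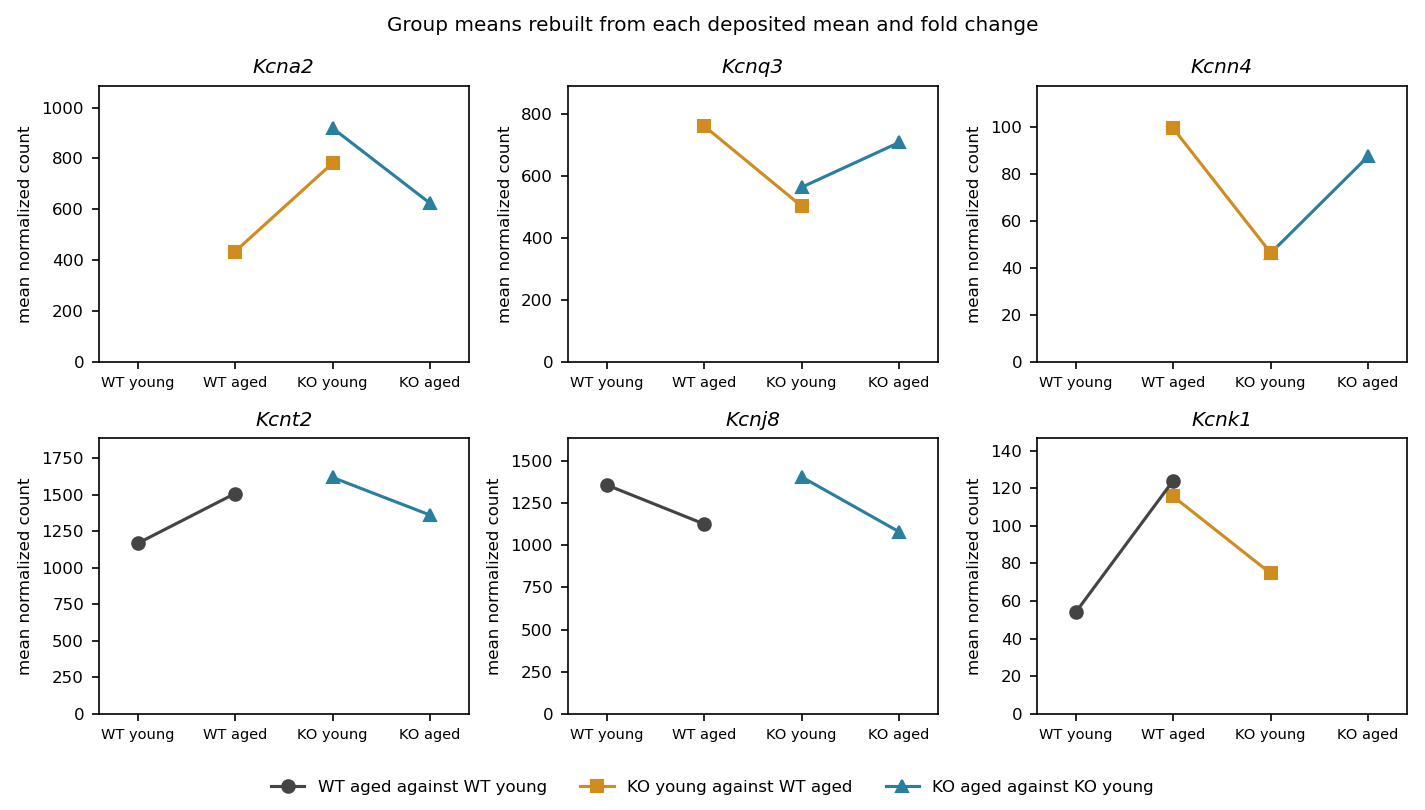
Rebuilt mean normalized count (y axis, from 0) in the groups (x axis) for the 6 genes called in 2 tables, with 1 line per comparison and no error bars, since values per library were not analysed. Of the 3 groups shown for each, Kcna2 is highest in KO young, at 782 and 920, while Kcnq3 and Kcnn4 are lowest there; Kcnt2 slopes up in WT and down in KO.

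At a stricter adjusted p under 0.01, 8 potassium channel genes were called in WT ageing, 3 in KO young against WT aged and 7 in KO ageing, beside 7.30%, 4.77% and 8.43% of the genes tested. With an absolute change of at least 0.5 the counts were 5, 4 and 5, beside 4.44%, 2.80% and 3.67% of the genes tested. These counts are out of the 94 annotated genes. How many of the 94 were tested is not known, so the counts and percentages have different bases.

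Non-Kcn subunits and transporters that move potassium were counted as a list of 36 genes. In WT ageing 7 were called, 3 higher and 4 lower, which is 19.4% of the list beside 12.0% of the genes tested. In KO young against WT aged 2 were called, both lower, or 5.56% beside 7.78%. In KO ageing 4 were called, 3 higher and 1 lower, or 11.1% beside 14.4%. The shares of the list count its genes whether tested or not. Counted likewise, 7.34%, 4.84% and 8.82% of all annotated protein-coding genes were called, in the same order of comparisons. Dpp10, which encodes an auxiliary subunit of Kv4 channels, rose with age in WT aorta from 27.9 to 95.8 (1.78, SE 0.52, adjusted p = 2.76e-04) in the authors' deposited table. Atp1b2, the gene of a beta subunit of the sodium pump, fell in both ageing comparisons, by 0.53 (SE 0.11) in WT and 0.27 (SE 0.12) in KO aorta in the authors' deposited tables. Among pump regulators, Fxyd1 fell by 0.20 (SE 0.07) in WT, and Fxyd6 rose by 0.39 (SE 0.14) in WT and by 0.30 (SE 0.13) in KO aorta in the authors' deposited tables. Amigo1, whose product binds Kv2 channels, rose by 0.27 (SE 0.09) in WT and 0.19 (SE 0.08) in KO aorta in the authors' deposited tables. Slc12a2, the sodium-potassium-chloride cotransporter gene, rose by 0.54 (SE 0.09, adjusted p = 5.04e-08) in KO ageing in the authors' deposited table. For Atp1b2, Fxyd6 and Amigo1 the difference between the ageing effects, KO minus WT, was 0.26 (95% interval −0.07 to 0.59), −0.09 (−0.46 to 0.28) and −0.08 (−0.32 to 0.16), with adjusted p of 0.28, 0.81 and 0.74 in the normal test over the 438 genes.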

How the data were processed

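RNA sequencing of 20 libraries of mouse aorta, 5 a group, is held here as 3 tables of the authors' comparisons. DESeq2 1.42.1, featureCounts of Subread 2.0.8, STAR 2.7.11b and MultiQC 1.25.1 are listed per the submitters' processing notes, along with build GRCm39, without roles or settings. Each called gene has a raw and an adjusted p-value as deposited. They also deposited a log2 fold change (2 decimals) with its SE. The mean normalized count, headed baseMean, was taken here as a signal averaged by the authors over all libraries of a comparison. It has no value per library, so depth is unknown and no interval from depth is given.

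The genes tested, 14374, 14661 and 14477, were recovered from the adjusted and raw p of each first row. With them the adjusted p was rebuilt in all 1728, 1141 and 2083 rows (relative tolerance 1e-06), so each table holds every called gene. The direction of a fold change was taken from the means of shared groups, which differed by a median absolute deviation of 0.0286 (WT aged) and 0.0353 (KO young) on the log2 scale, against at least 0.185 and 0.115 for other signs. KO young against WT aged was turned. The ratio of fold change to SE was smaller than the z behind the p-value (medians 0.858, 0.841 and 0.865 of it), as a shrunken estimate gives. Fold changes rebuilt from the p-value are that z times the deposited SE, and need not equal the estimates before shrinkage. Ageing effects were compared as a difference over the root of summed squared SEs, on a normal distribution, adjusted by Benjamini-Hochberg over 438 genes.

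Counts cover every called gene, but a few of those genes are not reported here; the other Kcn genes, the other called partner genes and up to 3 called genes of smallest adjusted p in a marker list were named, and Slc24a4; the members and lists were chosen with earlier results of these data known, and motifs after seeing the values. No protein sequences were used. Computations used pandas 2.3.3 and SciPy 1.17.1 on NumPy 2.4.6, with plots by matplotlib 3.10.9 (Python 3.11.15). Alternatives were stricter limits on p, fold change and mean, and fold changes or SEs rebuilt from p.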

Additional observations from a re-analysis of the deposited data

Results flagged for a closer look

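Kcnt2, the gene of the sodium-activated channel Slick, changed with age in opposite directions in the 2 genotypes. Its ageing effect in KO minus that in WT aorta was −0.62 on the log2 scale (adjusted p = 0.0015 over 438 genes). The test covered only genes called in both ageing comparisons, and 76 of the 77 with opposite signs passed it, so its p adds little to the pair of calls. Each effect rests on 5 pools a group, and the number of pools that show its direction is not known. A search for single libraries far from their group was not possible without values per library.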

How the results depend on the processing

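Requiring a change of 0.5 or more on the log2 scale, in either direction, the count of called genes went from 9 to 5 in WT ageing and from 10 to 5 in KO ageing, since that limit removes small changes by construction. At an adjusted p under 0.01 it went from 5 to 3 in KO young against WT aged, with Kcna1 and Kcnk1 lost. The other 6 of these 9 settings gave counts within 1.5 times. Kcnj8 did not pass and Kcnt2 differed between genotypes under all 3 alternatives of that test, with adjusted p for Kcnt2 from 2.45e-05 to 0.0015 and for Kcnj8 from 0.61 to 0.73. Of the 24 fold changes rebuilt from the p-value, 22 moved by less than 1 SE and none changed sign; Kcnc4 in WT ageing (−2.80) and Kcnk1 in KO young against WT aged (−1.15) moved by more. No paired analysis was possible because the tables hold no values per library, and for the same reason no library could be left out and no other normalization tried.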
